A study of Mus musculus with 4 samples.

Results

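Of the genes that build the cornified envelope and the skin barrier, 42 were measured on the arrays of this mammary gland study, among 17097 genes with a probe set of their own. They were chosen by name, with earlier results of these data known. The rule took every gene whose symbol begins with Sprr or Lce and a digit, together with Lor, Flg, Ivl, Sbsn, Krtdap, Dsg1a, Dsc1, Calml3, Tchh, Cdsn, Casp14, Tgm3, Klk5, Klk7, Alox12b, Aloxe3, Asprv1, Hrnr, Spink5 and Cnfn. RefSeq lists 58 genes that meet it, and 16 of them, such as Klk5, Sprr4, Lce6a, Lce1c and Sprr2b, had no probe set assigned to a single gene and were not analysed here. The tissue was whole inguinal mammary gland from mouse pups of postnatal day 10, with 1 array per sample. The groups were 2 Mt1-mmp(+/+) wild-type samples and 2 Mt1-mmp(-/-) global knockout samples, all from an outbred Swiss Black background, and the wild-type mice were littermates of the knockouts. The knockout is not limited to the gland. Mt1-mmp is listed on the array as Mmp14 and encodes a collagen-degrading protease anchored in the cell membrane. Whole gland was homogenised, so a lower value from fewer cells of a type and from less RNA per cell cannot be told apart.

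The cornified envelope is the sheath of cross-linked protein that replaces the plasma membrane of a keratinocyte as it dies at the skin surface. Involucrin, loricrin, the small proline-rich proteins (Sprr genes) and the late cornified envelope proteins (Lce genes) are joined to each other by transglutaminases, filaggrin packs the keratin filaments, and lipoxygenases help to bind lipids to the outside. Corneodesmosomes, rivets built from desmoglein 1, desmocollin 1 and corneodesmosin, hold the dead cells together until kallikrein proteases cut them, and trichohyalin hardens the inner root sheath of the hair follicle. The mammary gland is a skin appendage, but its ducts do not cornify, so these genes are known mainly from the epidermis, the hair and the nipple.

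The regions just before the start sites of 4 genes are shown because these genes carried the widest differences between arrays that are described further on. Each runs for 250 bases up to the annotated start, 5′ to 3′ on the gene's own strand, from RefSeq on the build GRCm38.p6. The region before Lor is chr3:92083143-92083392, minus strand, that of Flg chr3:93273296-93273545, plus strand, that of Sprr1a chr3:92485882-92486131, minus strand, and that of Tchh chr3:93442080-93442329, plus strand. Capitals mark matches, on either strand, to a TATA box (TATAAA) or to the AP-1 motif (TGANTCA).
Lor: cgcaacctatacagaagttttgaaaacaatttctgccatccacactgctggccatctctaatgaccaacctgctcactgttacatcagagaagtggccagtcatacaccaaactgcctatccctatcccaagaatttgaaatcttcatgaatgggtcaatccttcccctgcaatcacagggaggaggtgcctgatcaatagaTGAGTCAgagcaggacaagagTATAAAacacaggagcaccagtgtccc
Flg: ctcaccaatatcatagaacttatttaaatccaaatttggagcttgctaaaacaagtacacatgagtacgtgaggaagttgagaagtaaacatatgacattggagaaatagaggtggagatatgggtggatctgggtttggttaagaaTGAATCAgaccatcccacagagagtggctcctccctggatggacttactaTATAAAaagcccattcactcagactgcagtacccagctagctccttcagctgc
Sprr1a: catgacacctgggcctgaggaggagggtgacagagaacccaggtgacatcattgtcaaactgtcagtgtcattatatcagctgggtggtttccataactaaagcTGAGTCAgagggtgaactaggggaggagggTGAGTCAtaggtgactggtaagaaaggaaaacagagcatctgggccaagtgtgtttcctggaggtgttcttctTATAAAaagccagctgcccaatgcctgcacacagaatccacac
Tchh: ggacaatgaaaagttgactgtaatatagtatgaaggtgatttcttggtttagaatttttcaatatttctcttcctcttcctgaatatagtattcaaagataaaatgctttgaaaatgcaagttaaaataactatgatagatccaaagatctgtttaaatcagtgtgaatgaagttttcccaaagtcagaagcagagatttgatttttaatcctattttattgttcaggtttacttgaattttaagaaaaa
The Lor, Flg and Sprr1a regions each held a TATA box, with its first base 27, 53 and 43 bases before the start. The AP-1 motif began 48 bases before the start of Lor, 103 before that of Flg, and 146 and 116 before that of Sprr1a. Neither motif occurred in the 250 bases before Tchh. RefSeq promoter entries were matched for 35 of the 42 genes, in 36 entries. A TATA box was found in 16 of these 36 (44.4%), against 12.4% of all 32851 promoter entries of the same length, and the AP-1 motif in 12 (33.3%), against 6.75% of all. The motif AACNGGTT, used by grainyhead-like factors, was searched for on both strands as well and was found in 0 of the 36 (1.79% of all entries). No letters of these motifs overlapped in the 4 regions. A match of letters is a description and does not show a bound site.

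Array values are given in log2 units, replicate 1 before replicate 2 of each genotype. The 4 arrays differed in tissue markers, so these are given before the barrier genes. Array medians were near-equal, between 4.92 and 4.98 on the log2 scale. Mmp14 measured 8.92 and 8.73 (wild type) and 5.83 and 5.68 (knockout), with both knockout arrays below both wild-type arrays (-3.07 ± 0.12, SE, n = 2 per group, limma adjusted p = 0.0738). Mammary and fat markers were present throughout, with the luminal keratin gene Krt8 between 7.38 and 8.93 and the fatty acid binding protein gene Fabp4 between 13.30 and 13.48. Of 14 skeletal muscle genes 13 were 2-fold or more above wild type in knockout replicate 2, with a median of 5.49, and 0 were in knockout replicate 1, with a median of -0.86. Hair follicle genes stood at 2.14 in knockout replicate 1 and at -0.75 in knockout replicate 2, as medians over 20 genes. No comparison was adjusted for these markers, and their part in the differences below was not tested.

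Many barrier genes had their highest value in knockout replicate 1, and none passed the test between genotypes. Over all 42 genes the median difference between knockout and wild type was 0.23 (log2), against -0.00070 over all 17097 genes. It was 0.53 in knockout replicate 1 and -0.01 in knockout replicate 2, each against the wild-type mean. At least 2-fold above the wild-type mean were 14 of the 42 genes in knockout replicate 1, where 1.68% of all genes were, and 0 of 42 in knockout replicate 2, where 1.80% of all genes were. Those 14 were Lor, Flg, Sprr1a, Dsc1, Tchh, Sbsn, Klk7, Krtdap, Calml3, Dsg1a, Cnfn, Asprv1, Lce1m and Ivl. They made up 33.3% of the barrier genes and 4.86% of the 288 genes on the array that were this much higher in knockout replicate 1. These are comparisons with a single array and have no test.

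**Figure D1:**
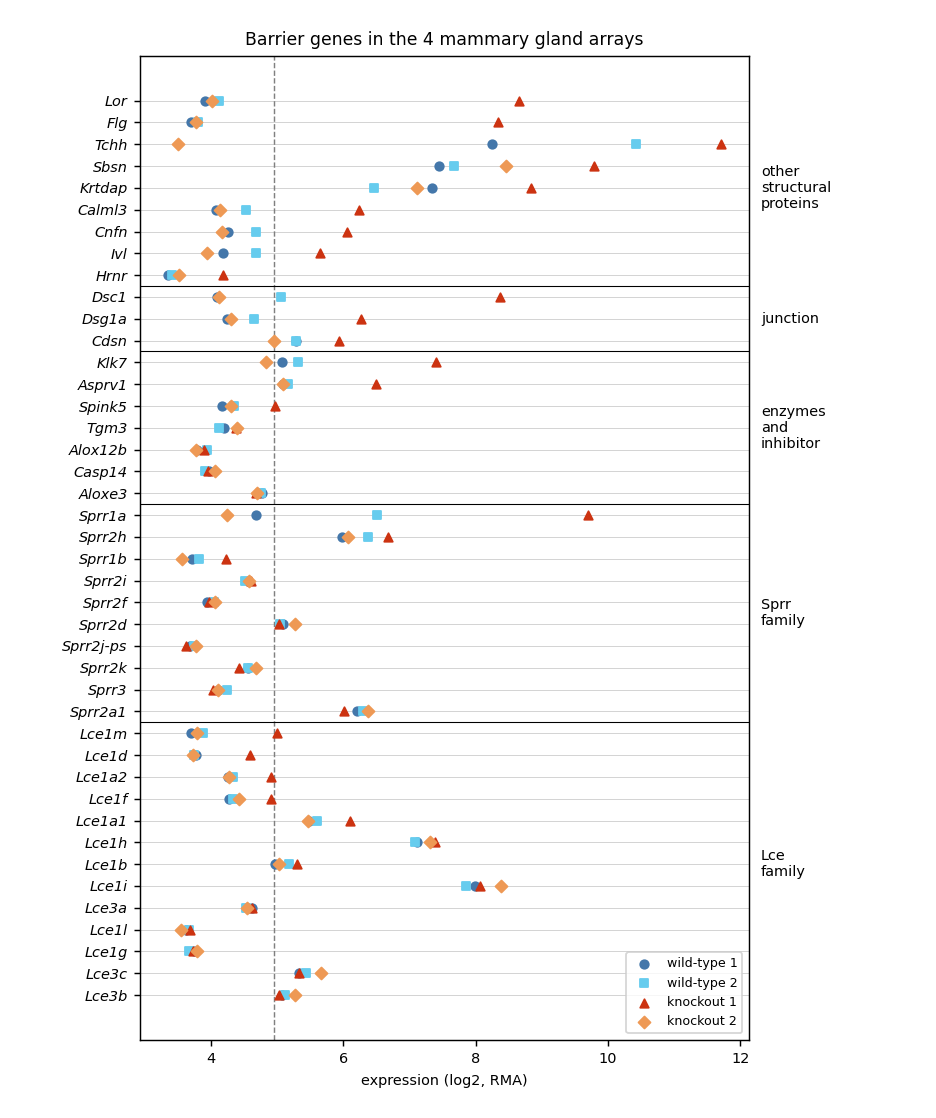
Expression (log2, RMA) of the 42 barrier genes in each of the 4 arrays, with genes grouped by role and sorted within a group by the difference between knockout replicate 1 and the wild-type mean. The dashed line is the brightness limit of 4.94; the knockout 1 triangles of Lor, Flg, Dsc1 and Sprr1a lie far to the right of the other 3 arrays, while most Sprr and Lce genes have all 4 points close together.

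Knockout and wild type were compared with limma over the 11078 genes with a mean of 4.94 or more, the brightness limit set at the median of all probe sets, with Benjamini-Hochberg adjustment over all of them. Of the barrier genes 18 passed this limit and 24 did not. Some of the 18, such as Lor and Dsc1, passed only because knockout replicate 1 was high. In limma 0 of the 18 were called higher (0% of all tested genes) and 0 lower (0%) at an adjusted p under 0.05. At an unadjusted p under 0.05 limma gave 1 of 18 higher (9.69% of all tested genes) and 0 lower (12.1%). The smallest adjusted p was 0.199, for Sbsn. Without knockout replicate 1 limma called 2 of 18 higher (13.1% of all tested genes) and 2 lower (24.6%), and without knockout replicate 2 it called 7 higher (6.73%) and 0 lower (4.99%). Both knockout arrays lay above both wild-type arrays for 7 of the 42 genes (23.5% of all genes), and below for 1 (26.6%). The 2 arrays of each genotype are labelled biological replicates, and nothing in the labels says which animals or litters they came from, so p-values measure the spread between these samples.

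Lor encodes loricrin, a glycine-rich protein that makes up much of the finished envelope. It measured 3.91 and 4.11 (wild type) and 8.65 and 4.01 (knockout). Knockout replicate 1 thus stood 4.64 (log2), or 24.9-fold, above wild type, the largest such difference of all 17097 genes. Knockout replicate 2 lay between both wild-type arrays. The genotype difference of 2.32 ± 1.66 (SE, n = 2 per group) was not called by limma (adjusted p = 0.460), and without knockout replicate 1 it was -0.0007.

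Flg encodes profilaggrin, the precursor of filaggrin. It measured 3.69 and 3.80 (wild type) and 8.34 and 3.77 (knockout). Its difference in knockout replicate 1, 4.59, was the second largest of all genes, and the other 3 arrays lay within 0.10 of each other. Its mean of 4.90 fell just short of the brightness limit, and it is described in full because of its values. Without that limit limma gave a genotype difference of 2.31 and an adjusted p of 0.564. Hrnr, which encodes the filaggrin-like protein hornerin, measured 3.35 and 3.40 (wild type) and 4.18 and 3.51 (knockout), so both knockout arrays were above both wild-type arrays at low values.

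Tchh, the trichohyalin gene, did not follow the pattern of Lor and Flg. It had 8.25 and 10.43 in wild type, 11.71 in knockout replicate 1 and 3.50 in knockout replicate 2. Wild-type replicate 2 exceeded wild-type replicate 1 by 2.18, knockout replicate 1 was the highest array, and knockout replicate 2 stood at -5.83 from the wild-type mean. The gap between the knockout arrays, 8.21, was the largest of all genes. The genotype difference of -1.73 ± 3.03 (SE, n = 2 per group) was not called by limma (adjusted p = 0.759). It was called lower without knockout replicate 1 (-5.83, adjusted p = 0.0247) and turned to 2.37 without knockout replicate 2, where the single knockout array is taken to have the spread of wild type.

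Sbsn, which encodes the secreted protein suprabasin of the upper epidermis, was the barrier gene with the smallest p. It measured 7.45 and 7.68 (wild type) and 9.79 and 8.46 (knockout), so the genotypes did not overlap. The difference was 1.56 ± 0.49 (SE, n = 2 per group), or 2.96-fold, with a limma adjusted p of 0.199 that did not pass. It was called higher without knockout replicate 1 (0.90, adjusted p = 0.0177) and without knockout replicate 2 (2.22, adjusted p = 0.0229), on the same assumption. A second Sbsn probe set differed by 1.46 and another, dimmer one by 0.40. Krtdap, which encodes a secreted protein of differentiating keratinocytes, measured 7.34 and 6.45 (wild type) and 8.84 and 7.11 (knockout). Knockout replicate 2 fell between the wild-type arrays there, and the difference of 1.08 ± 0.70 was not called (limma adjusted p = 0.421).

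Calml3, a calmodulin-like gene of epithelia, measured 4.07 and 4.53 (wild type) and 6.24 and 4.14 (knockout). Cnfn, which encodes the envelope protein cornifelin, had 4.26 and 4.68 against 6.05 and 4.16. Ivl, the involucrin gene, had 4.18 and 4.69 against 5.64 and 3.94. In all 3 genes knockout replicate 1 was the highest array, wild-type replicate 2 came next, and the genotypes overlapped. Means of these 3 genes were below the brightness limit. A second Ivl probe set stayed between 4.22 and 4.41 on every array.

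All 3 corneodesmosome genes, like all 9 structural genes above, were highest in knockout replicate 1. Dsc1, which encodes desmocollin 1, measured 4.09 and 5.06 (wild type) and 8.37 and 4.12 (knockout). Knockout replicate 1 was 3.80 above the wild-type mean, the fifth largest difference on the array, and wild-type replicate 2 was 0.96 above wild-type replicate 1. Another Dsc1 probe set stayed between 3.94 and 4.12 on all arrays, so the probe sets disagreed. Dsg1a, a desmoglein 1 gene, had 4.25 and 4.64 against 6.27 and 4.30. Cdsn, which encodes corneodesmosin, had 5.28 and 5.29 against 5.94 and 4.95, with the knockout arrays on opposite sides of wild type. The limma adjusted p was 0.560 for Dsc1 (1.67 ± 1.55, SE, n = 2 per group) and 0.820 for Cdsn (0.16 ± 0.36).

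Among the 7 genes of enzymes and an inhibitor, 2 proteases were at least 2-fold above wild type in knockout replicate 1. Klk7, a kallikrein that cuts corneodesmosomes during shedding, measured 5.07 and 5.31 (wild type) and 7.39 and 4.83 (knockout). Asprv1, an aspartic protease that processes profilaggrin, had 5.08 and 5.16 against 6.49 and 5.09. Knockout replicate 1 alone stood apart in both, by 2.20 and 1.37 from the wild-type mean, and limma gave adjusted p-values of 0.585 and 0.486 for the genotype. Spink5, which encodes the kallikrein inhibitor LEKTI, had 4.16 and 4.34 against 4.97 and 4.30. The lipoxygenase genes Alox12b and Aloxe3 stayed between 3.77 and 3.94 and between 4.68 and 4.77. Casp14, the caspase that breaks down filaggrin, stayed between 3.91 and 4.06, and the transglutaminase gene Tgm3 between 4.11 and 4.39, with both knockout arrays above both wild-type arrays for Tgm3 and both below for Aloxe3. These 4 genes were below the brightness limit on every array.

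In the Sprr family 1 of 10 genes was at least 2-fold above wild type in knockout replicate 1. Sprr1a measured 4.68 and 6.51 (wild type) and 9.69 and 4.24 (knockout). Knockout replicate 1 was 4.10 above the wild-type mean and knockout replicate 2 was at -1.35. The wild-type arrays themselves differed by 1.83, or 3.55-fold. Its genotype difference of 1.37 ± 2.05 (SE, n = 2 per group) was not called by limma (adjusted p = 0.719). Sprr1b, separated from Sprr1a by 1 gene in the annotation, had 3.71 and 3.81 against 4.22 and 3.57. Sprr2h had 5.98 and 6.37 against 6.67 and 6.07, and Sprr2d had 5.09 and 5.04 against 5.02 and 5.26. Sprr2a1 had 6.20 and 6.29 against 6.01 and 6.37, so the genotypes overlapped in all 3 of these genes. Sprr2a1, Sprr2d, Sprr2f, Sprr2i, Sprr2k, Sprr3 and the transcribed pseudogene Sprr2j-ps differed from the wild-type mean by -0.24 to 0.20 in either knockout array. Near-identical copies share probes in this family. A probe set assigned to both Sprr2a3 and Sprr2a1 gave 6.21 and 6.21 (wild type) and 6.03 and 6.41 (knockout), close to that of Sprr2a1 alone, and the 250 bases before Sprr2a1 and Sprr2a2 were 100% identical.

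In the Lce family knockout replicate 1 was the highest array for 9 of 13 genes, by small amounts. Lce1m measured 3.70 and 3.88 (wild type) and 5.0 and 3.78 (knockout), and was the 1 member at least 2-fold above wild type in knockout replicate 1. Lce1d had 3.77 and 3.74 against 4.59 and 3.72. Lce1a1, Lce1a2 and Lce1f stood 0.55, 0.61 and 0.61 above wild type in knockout replicate 1 and between -0.08 and 0.12 in knockout replicate 2. Another, dimmer Lce1f probe set stood at -0.01 in knockout replicate 1, and another, dimmer Lce1a1 probe set at 0.95. The Lce3 genes Lce3a, Lce3b and Lce3c, known for their response to skin injury, lay between -0.06 and 0.27 from wild type in either knockout array, and Lce1b, Lce1g and Lce1l between -0.09 and 0.23. Past the brightness limit among these, Lce1a1 had 5.48 and 5.6 against 6.09 and 5.47, and Lce1b had 4.97 and 5.18 against 5.30 and 5.03. Lce3b had 5.07 and 5.12 against 5.03 and 5.27, and Lce3c had 5.33 and 5.44 against 5.33 and 5.66. The genotypes overlapped in each.

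Lce1h and Lce1i had the smallest adjusted p-values of the Lce genes, and neither passed. Lce1h measured 7.12 and 7.08 (wild type) and 7.38 and 7.31 (knockout), a difference of 0.25 ± 0.09 (SE, n = 2 per group) with a limma adjusted p of 0.244. Lce1i had 7.99 and 7.86 against 8.06 and 8.37, a difference of 0.29 ± 0.15 with a limma adjusted p of 0.337. Both knockout arrays were above both wild-type arrays in these genes, and knockout replicate 2 was the highest for Lce1i. The probe set names of both carry a suffix for probes that can match several transcripts. Those of Lce1a1, Lce1d, Lce1m, Lce3b and Lce3c do too, and outside the family those of Lor, Sbsn, Sprr2a1 and Sprr2h. Other transcripts, of the same gene or of others, may thus share in these values.

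**Figure D2:**
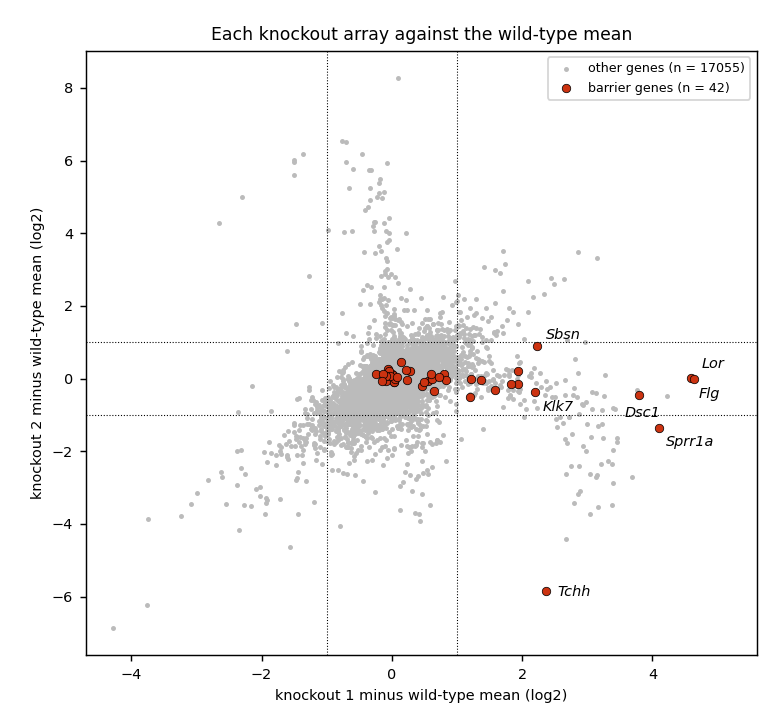
Difference from the wild-type mean (log2) in knockout replicate 1 (horizontal) against knockout replicate 2 (vertical) for 42 barrier genes in red and all other genes in grey, with dotted lines at 2-fold. The barrier genes spread to the right along the zero line, up to 4.64 for Lor, and Tchh lies apart at 2.37 and -5.83.

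Ranked by the difference of knockout replicate 1 from the wild-type mean, 4 of the 10 highest genes on the array were barrier genes, namely Lor, Flg, Sprr1a and Dsc1. The other 6, named after their values were seen, were the epidermal gene Dmkn (4.22), the protease inhibitor gene Cst6 (3.77), the hair keratin gene Krt26 (3.79) and the hair keratin-associated genes Krtap6-5 (3.69), Krtap4-7 (3.46) and Krtap4-16 (3.46). Knockout replicate 1 was the highest of the 4 arrays for 28 of 42 barrier genes, where this held for 24.0% of all genes. Knockout replicate 2 was the lowest for 11 of 42, where this held for 32.5% of all genes, and at least 2-fold below wild type were 2 of 42 there (3.33% of all genes) and 0 of 42 in knockout replicate 1 (0.959%). Wild-type replicate 2 was at least 2-fold above wild-type replicate 1 for 2 barrier genes, Tchh and Sprr1a, where this held for 0.445% of all genes.

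The order of the 4 arrays in Tchh, with knockout replicate 2 lowest, then wild-type replicate 1, wild-type replicate 2 and knockout replicate 1, recurred in 8 other barrier genes, Sprr1a, Klk7, Ivl, Cnfn, Cdsn, Sprr1b, Lce1a1 and Lce1l. That made 9 of 42 (21.4%), with Tchh, which set the order, counted among them, beside 4.92% of all genes, 14 of 20 hair follicle genes (70.0%) and 5 of 10 genes of the suprabasal epidermis, namely Krt10, Krt23, Lypd3, Ly6g6c and Dmkn. Some of these orders rest on small gaps. Lce1l stayed between 3.55 and 3.68 on all arrays, and Lce1a1 had 5.48 in wild-type replicate 1 and 5.47 in knockout replicate 2. The other probe sets of Lce1a1 and Ivl did not have the order. Krt25, a keratin gene of the inner root sheath, measured 7.0 and 9.40 (wild type) and 11.59 and 4.73 (knockout). Lor and Flg did not have this order.

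Of the 42 genes 28 lie in a single run on chromosome 3, the epidermal differentiation complex, in which RefSeq places 70 genes from Lor to Tchh. Of those 28, 6 were 2-fold or more above wild type in knockout replicate 1 (Lor, Sprr1a, Ivl, Lce1m, Flg and Tchh). None of these 6 was next to another in the annotation. Only Sprr4, without a probe set of its own, lies between Sprr1a and Ivl. Between Sprr1a and Flg lie 40 genes, among them all the Lce genes. Hrnr, next but one to Flg, stood at 0.80 where Flg stood at 4.59. The 6 other genes of the run with a probe set of their own included 1 above 2-fold, Prr9, which lies next to Lor. Prr9 stood at 3.05 in knockout replicate 1 and -3.73 in knockout replicate 2. Of the 14 barrier genes elsewhere in the genome 8 were at least 2-fold above, with a median of 1.47 against 0.26 on chromosome 3.

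**Figure D3:**
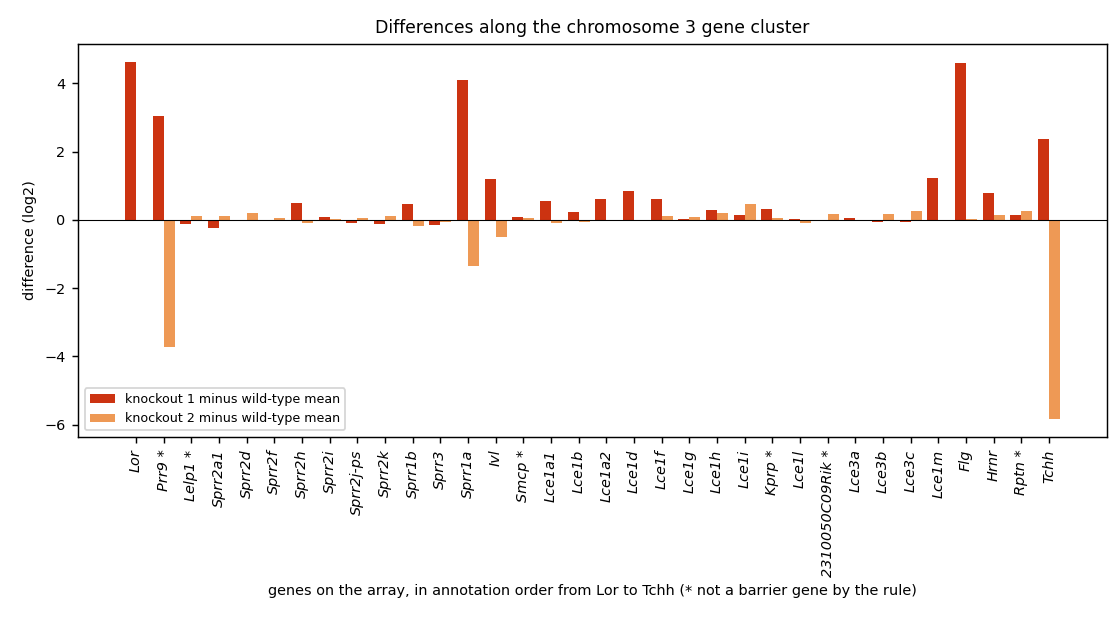
Difference of each knockout array from the wild-type mean (log2) for the 34 genes with a probe set of their own between Lor and Tchh on chromosome 3, in annotation order. Tall red bars for knockout replicate 1 at Lor, Prr9, Sprr1a, Flg and Tchh stand among low bars of Sprr2, Lce1 and Lce3 genes. Knockout replicate 2 is far below zero at Prr9 (-3.73) and Tchh (-5.83).

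Knockout replicate 1 was the highest array for 8 of 10 genes of the suprabasal epidermis and 5 of 8 basal epidermal genes, beside 24.0% of all genes. In limma 0 of the tested members of every list named here were called in either direction, as were 0 of all 11078 tested genes. Of 10 genes of the suprabasal epidermis 7 were 2-fold or more above wild type in knockout replicate 1 and 0 in knockout replicate 2. Krt10, the keratin of spinous keratinocytes, measured 6.33 and 6.35 (wild type) and 9.33 and 5.70 (knockout). Dmkn, which encodes dermokine, had 4.94 and 5.90 against 9.64 and 4.93, and the keratin gene Krt77 had 4.89 and 5.09 against 6.91 and 4.97. The defining keratin Krt1 was at 4.34 and 4.18 against 6.53 and 4.40, so it was low in 3 arrays. Basal epidermal genes, which mammary myoepithelium also uses, were at least 2-fold above in 5 of 8 in knockout replicate 1, with medians of 1.35 and 0.31 in the knockout replicates. Their 3 brightest in wild type were the integrin gene Itga6 (10.56 and 10.45 against 10.01 and 9.97), Dst (9.88 and 9.87 against 9.92 and 10.14) and the keratin gene Krt5 (6.64 and 6.81 against 8.85 and 6.87). Hair follicle genes were at least 2-fold above in 17 of 20 in knockout replicate 1 and at least 2-fold below in 9 of 20 in knockout replicate 2, where 3.33% of all genes were. After Krt25 the brightest were Krt27 (6.28 and 8.76 against 10.92 and 4.64) and Krt33a (6.0 and 8.56 against 10.43 and 4.63).

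Among the other lists of the barrier pathway, envelope scaffold and cross-linking genes had 9 of 17 at least 2-fold above in knockout replicate 1, a median of 1.25 there and -0.08 in knockout replicate 2. The desmoplakin gene Dsp had 7.18 and 8.56 in wild type against 10.79 and 7.17, the plakophilin gene Pkp1 had 6.91 and 7.05 against 8.78 and 7.10, and plakoglobin (Jup) stayed between 7.52 and 7.68. Among barrier lipid genes 1 of 19, the fatty acid elongase gene Elovl4, was at least 2-fold above in knockout replicate 1, and the list's median there was -0.0006. The lipid genes Fabp5 (12.79 and 12.76 against 12.46 and 12.18), Elovl1 (9.14 and 9.22 against 9.14 and 8.98) and Abhd5 (9.03 and 9.09 against 9.75 and 9.09) were the brightest in wild type. Other proteases and inhibitors gave 3 of 12 at this level and a median of 0.40, with Ctsl (11.47 and 11.27 against 11.14 and 11.22), Spint2 (8.87 and 8.41 against 9.36 and 9.26) and Cst6 (5.77 and 6.40 against 9.85 and 5.77). Tight junction genes gave 2 of 9, with the scaffold gene Tjp1 between 10.46 and 10.77, F11r between 9.30 and 9.49 and the claudin gene Cldn1 at 5.64 and 6.04 against 7.97 and 5.89. S100 and alarm genes gave 5 of 12, with S100a6 between 11.03 and 11.66, S100a16 between 10.39 and 11.14 and the neutrophil and keratinocyte gene S100a8 at 8.32 and 7.75 against 9.09 and 6.38.

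Of 22 regulator genes of the keratinocyte programme 14 had both knockout arrays above both wild-type arrays, where 23.5% of all genes did. This was not particular to the regulators, since it held for 6 of 8 basal epidermal, 6 of 9 tight junction and 8 of 13 luminal mammary genes. It held for 3 of 10 suprabasal epidermal and 3 of 20 hair follicle genes. The medians over the 22 were 0.29 and 0.23 in the knockout replicates. Cebpb (10.46 and 10.50 against 10.11 and 10.11), Cebpa (10.15 and 10.27 against 10.57 and 10.42) and Notch3 (9.87 and 9.66 against 9.52 and 9.67) were the brightest in wild type. Named after their values were seen, Pou3f1 had 4.68 and 4.62 against 5.91 and 5.85, and Klf4 had 9.41 and 9.43 against 9.66 and 9.82. Of the 22, 17 passed the brightness limit. Pou3f1 was below it in both wild-type arrays and passed only through its knockout arrays, so its test was not independent of the filter. Limma called 0 of these 17 in either direction, beside 0 of all 11078 tested genes. An unadjusted p under 0.05 was reached by 4 of 17 that were higher (9.69% of all tested genes) and 1 that was lower (12.1%). Fat, muscle, immune and ductal cells also use several of these regulators. In knockout replicate 1, 4 of the 22 were at least 2-fold above wild type. These were the grainyhead-like gene Grhl1 (5.64 and 5.97 against 7.99 and 6.09), Trp63 (5.12 and 5.75 against 6.96 and 5.86), Tfap2a (5.54 and 5.30 against 6.62 and 5.76) and Pou3f1, which was also above in knockout replicate 2. Grhl3, a known driver of barrier formation, stayed between 3.83 and 4.03.

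**Figure D4:**
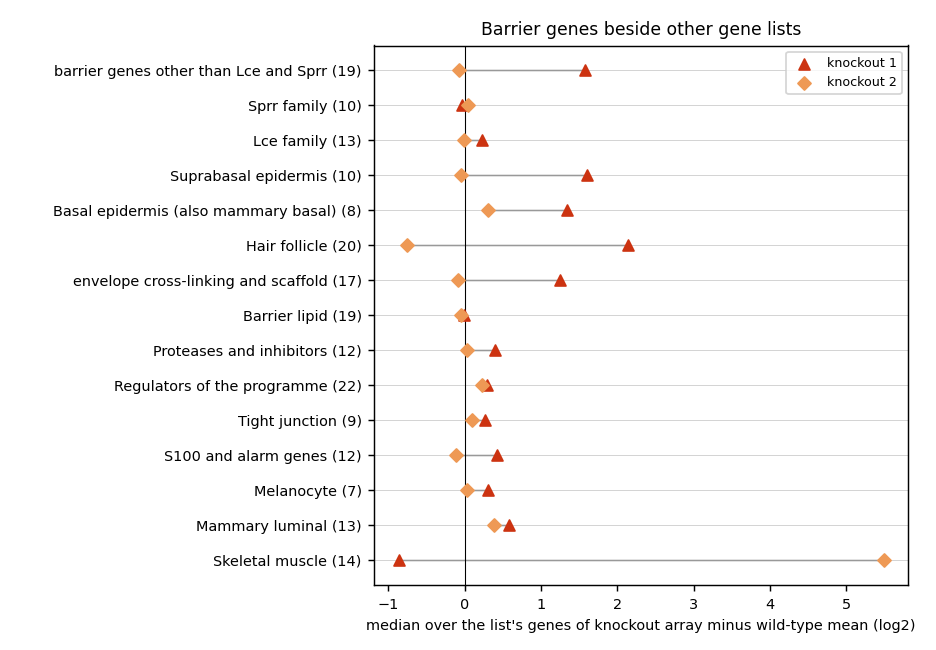
Median over each list's genes (number in parentheses) of the difference from the wild-type mean (log2) in knockout replicate 1 (triangles) and knockout replicate 2 (diamonds). The barrier genes outside the Sprr and Lce families (1.58 and -0.07), suprabasal epidermis (1.60 and -0.05) and envelope scaffold genes (1.25 and -0.08) lie at similar places, hair follicle genes span 2.14 to -0.75, and skeletal muscle lies at -0.86 and 5.49.

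Markers of other skin cells gave mixed values in the same arrays. Of 7 melanocyte genes Dct measured 5.68 and 5.82 (wild type) and 6.78 and 5.77 (knockout), Pmel had 5.37 and 5.62 against 6.33 and 5.82, and Slc45a2 stayed between 4.99 and 5.20. Mlana, which encodes a melanosome protein, had the largest genotype difference of this list, with 4.31 and 4.98 against 6.81 and 6.88 (2.20 ± 0.25, SE, n = 2 per group, limma adjusted p = 0.102), so both knockout arrays were above both wild-type arrays. Its wild-type mean was below the brightness limit, so Mlana was tested only because its knockout arrays were high. The defining pigment enzyme genes Tyr and Tyrp1 stayed under the brightness limit on all arrays. Sebaceous gland genes were at least 2-fold above in 0 of 5 in knockout replicate 1, and the brightest of them, Plin2 (10.90 to 11.22), Pparg (9.74 to 10.16) and Elovl3 (5.46 to 6.19), are also genes of fat. Luminal mammary genes had medians of 0.58 and 0.39 in the knockout replicates, with Krt8 at 8.73 and 7.38 against 8.64 and 8.93, Epcam at 8.37 and 7.54 against 9.27 and 8.72 and Krt18 at 8.36 and 7.27 against 8.79 and 8.72. The muscle genes brightest in wild type were Myl1 (9.80 and 10.26 against 8.75 and 12.86), Acta1 (6.12 and 9.81 against 5.67 and 12.96) and Tnnc2 (5.10 and 8.75 against 5.42 and 12.94). Among adipocyte genes Adipoq lay between 13.04 and 13.26 and Retn between 12.24 and 12.60, while the leptin gene Lep, named after its values were seen, measured 10.72 and 10.72 (wild type) and 6.95 and 4.48 (knockout).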

How the data were processed

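RNA from 4 mammary gland samples was hybridised to 1 Affymetrix array each. The authors deposited log2 values, for which the submitters' processing notes name RMA and affy without a version. RMA equalises the arrays and compresses differences at low values, and the log2 scale was read from the values (3.16 to 13.68). Precision is limited by having 2 arrays per genotype, and no detection flags were taken into account. An annotation of the array design gave 28898 probe sets with 1 gene, 551 with several and 15692 with none, out of 45141. Gene IDs of 28689 matched RefSeq (GRCm38.p6), and 0 symbols changed. The brightest single-gene probe set stood for each of 17097 genes.

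Genotypes were compared with limma 3.58.1 (lmFit, eBayes) in R 4.3.3 over 11078 genes, with no covariate and Benjamini-Hochberg adjustment at 0.05, and the procedure was tested on simulated data. The barrier genes and all lists were chosen with earlier results of these data known. Barrier genes are named with each array's value where their mean passed the brightness limit and with their range or values otherwise, as are the 3 genes of each list brightest in wild type. Krt1, Krt26, Krtap genes, Prr9, Elovl4, Krt23, Lypd3, Ly6g6c, Klf4, Pou3f1, Grhl1, Grhl3, Trp63, Tfap2a, Mlana, Tyr, Tyrp1 and Lep fall outside this rule and were added after their values were seen. Alternatives were other filters, probe set rules, scalings, variance models, the replicate number as a block and each array left out. The labels do not say that the replicate number marks a litter, so the numbers were not taken as pairs in the main fit. Deviations of same-numbered arrays from their genotype means had a correlation of -0.09 over 11078 genes. With 2 arrays per genotype this cannot show whether they shared a litter. Upstream regions were searched with Python, and aligned with Biopython 1.88.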

Additional observations from a re-analysis of the deposited data

How the results depend on the processing

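Counts of genes called between the genotypes were 0 with every filter, probe set rule, scaling and variance model tried, and with the replicate block, which left the smallest adjusted p of a barrier gene at 0.269 and changed no call. With single arrays left out the count ran from 0 to 4180, with 4180 genes called without knockout replicate 1 and 1299 without knockout replicate 2. There limma called 2 barrier genes higher (Lce1i, Sbsn) and 2 lower (Cdsn, Tchh) of 18 without knockout replicate 1, where 13.1% and 24.6% of all tested genes were, and 7 higher without knockout replicate 2 (Asprv1, Cdsn, Dsc1, Klk7, Lce1a1, Lor and Sbsn), where 6.73% were. The single knockout array is taken to have the spread of wild type, so these calls compare that array with wild type. The brightness limit was set on the mean of all arrays, also where an array was then left out. Lor and Dsc1 passed it only because knockout replicate 1 was high, so their calls there are not independent of the filter. The median over all 42 genes stayed between 0.16 and 0.23 except without knockout replicate 1 (-0.01) and knockout replicate 2 (0.53), and over fewer genes it was 0.23 (33 genes, without probe sets for several transcripts), 0.24 (18 genes past the brightness limit) and 0.29 (5 genes past the 75th percentile). Without overlap between genotypes were 8 genes, 7 above and 1 below, beside 23.5% and 26.6% of all genes. That count was 6 of 33 without probe sets for several transcripts, and 8 to 10 with the other probe set rule and the scalings. With 1 array left out it ran from 14 to 38, since fewer arrays overlap less often. Past the brightness filter at the median, an alternative added after seeing the data, it was 3. Past the 75th percentile it was 3 too, and fewer genes were counted with both filters. The share of all genes under each of these settings is not given, so the counts are not read as a trait of the barrier genes. The count of 14 genes at least 2-fold above wild type in knockout replicate 1 was 11 to 14 under the 7 other settings, also added afterwards, with 11 of 33 genes when probe sets for several transcripts were left out.

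Leaving out single arrays turned the direction of 14 differences. They ran from -0.034 to 1.37 for Asprv1, -0.34 to 0.65 for Cdsn, -0.45 to 3.80 for Dsc1, -0.36 to 2.20 for Klk7, -0.078 to 0.55 for Lce1a1, -0.050 to 0.23 for Lce1b, -0.065 to 0.18 for Lce3b, -0.054 to 0.27 for Lce3c, -0.0007 to 4.64 for Lor, -1.35 to 4.10 for Sprr1a, -0.24 to 0.12 for Sprr2a1, -0.042 to 0.20 for Sprr2d, -0.10 to 0.50 for Sprr2h and -5.83 to 2.37 for Tchh. Low values limit the other genes, since 24 of the 42 means were below 4.94.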
